A study of Mus musculus with 6 samples.

Results

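The 35 genes described here cover the handling of fatty acids: genes that mark fat cells, the lipases, the uncoupling proteins and the enzymes of mitochondrial beta-oxidation. They were chosen by symbol from a count table of 24067 rows for 6 mouse tongues, and all 35 symbols were found. A filter on low counts left 34 of them among 15903 genes tested, and Lep, the leptin gene, was too low to test. For this description 13 genes were placed with fat cells, 13 with the oxidation of fatty acids in muscle, and 9 with neither because several tissues use them.

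Fat cells store fatty acids as triglyceride in droplets coated by perilipins and release them through lipases, and they secrete hormones such as adiponectin and leptin. Muscle fibres take fatty acids from the blood, carry them into mitochondria as carnitine esters and break them down by beta-oxidation. The nuclear receptors PPAR-gamma and PPAR-alpha drive many genes of the fat-cell and of the oxidative programme. The body of the tongue is largely striated muscle, with fat cells among its fibres.

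The tongues came from C57BL/6 mice aged about 34 weeks, 3 of them labelled HuR knockout (KO) and 3 labelled HuR wild type (WT). All the mice had received 4-nitroquinoline 1-oxide (4NQO), a DNA-damaging carcinogen, over 16 weeks. A wait of 12 weeks followed while tongue tumours formed, and RNA came from tongue with tumour. HuR, encoded by Elavl1, is a protein that binds AU-rich elements of messenger RNAs. The comparison asks which transcripts differ between tongues labelled knockout and tongues labelled wild type for it. How the knockout was made, and in which cells, is not given in the sources used here. Levels are read counts scaled to library size (CPM), listed by library in the order of replicates 1, 2 and 3. A fold change is that of labelled KO over labelled WT on the log2 scale, given with its standard error, and a gene is called where the adjusted p of edgeR's quasi-likelihood test is under 0.05.

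The libraries held 29543352 to 51520707 counts, so that 1 CPM is 25.6 to 53.0 counts. Elavl1 stood at 65.0, 59.3 and 78.4 CPM in labelled KO tongues and 61.7, 55.8 and 48.0 CPM in labelled WT tongues, which is not lower (log2 fold change 0.29 ± 0.15, edgeR adjusted p = 0.180), so groups are named by their labels. Xist and Ddx3y showed labelled KO replicates 2 and 3 to be female and the other 4 libraries male. The sum of 18 muscle structural genes was 46153, 48604 and 65195 CPM in labelled KO tongues and 81676, 117493 and 149296 CPM in labelled WT tongues, with no overlap. The part of muscle content in the values below was not tested beyond the ratios and the covariate given with them, and in bulk tissue fewer cells of a type and less RNA per cell cannot be told apart.

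Of the 34 genes tested 5 fell in labelled KO tongues and 0 rose, beside 7.43% of all genes tested that fell and 4.81% that rose. The 5 were Ucp3, Hadhb, Plin4, Lpl and Cd36. Their edgeR adjusted p ran from 0.0410 to 0.0485, close to the threshold. Over all genes tested the smallest edgeR adjusted p was 0.0245, and 873 of the genes called had one over 0.04. The median log2 fold change over the 34 was -0.58, against 0.02 over all genes tested, and 29 of the 34 lay below 0. The libraries labelled KO were all below those labelled WT for 10 of the 34 and all above for 0, where 22.1% and 22% of all genes tested did so. The shares that fell and that lay wholly below were thus higher among the members than among all genes, by a margin that was not tested. Of the 18 muscle structural genes 5 fell and 13 lay wholly below. Of 20 genes of the respiratory chain and citric acid cycle, 5 fell and 19 lay wholly below. Lower levels in labelled KO tongues were therefore not particular to the members. At an unadjusted p under 0.05 edgeR gave 15 lower and 0 higher, and neither DESeq2 nor limma-voom called any of them higher.

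The muscle oxidation genes lay lower than the fat-cell genes, a difference between lists that was not tested. All 13 of the muscle genes had a log2 fold change below 0, with a median of -0.79, and 2 fell. Among 12 fat-cell genes tested 8 lay below 0, with a median of -0.25, and 1 fell. The median of the 9 genes of several tissues was -0.49, and 2 of them fell. The number of calls rested on which libraries were kept: with edgeR it was 0 without labelled KO replicate 1, 2 or 3 or labelled WT replicate 2 (9, 10, 19 and 10 lower at an unadjusted p under 0.05), 1 without labelled WT replicate 3 and 14 without labelled WT replicate 1. Calls over all genes moved alike, with 6, 0, 3 and 1 genes lower in the 4 fits with 0 members, 2.69% of genes without labelled WT replicate 3 and 18.1% without labelled WT replicate 1. In male libraries alone, with labelled KO replicate 1 as the single library of its group, edgeR called 0 members and 0 of all 16381 genes (7 members lower at an unadjusted p under 0.05), so the count says nothing particular of the members. The medians there were -1.09 for the muscle genes and -0.23 for the fat-cell genes. The fat-cell median was 0.23 without labelled WT replicate 2, so its direction hung on that library.

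**Figure D1:**
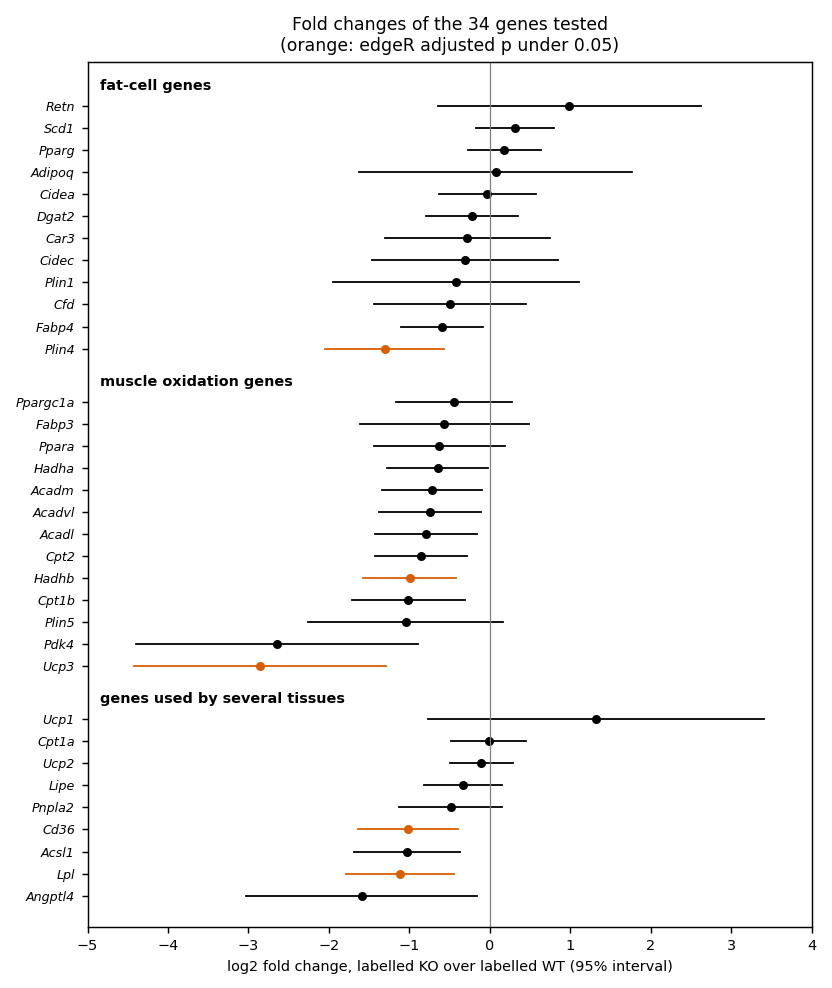
Log2 fold changes of the 34 genes tested, labelled KO over labelled WT, as points with 95% intervals, grouped by list, with the 5 called genes in orange. All 13 muscle oxidation genes lie left of 0 and Ucp3 and Pdk4 lie farthest, at -2.86 and -2.65.

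Ucp3 (identifier 22229, chromosome 7, 100472991 to 100486432 in GRCm38), an uncoupling protein of the inner mitochondrial membrane found mainly in skeletal muscle, had the largest fall. It stood at 16.4, 17.7 and 12.3 CPM in labelled KO tongues and at 33.1, 60.8 and 243 CPM in labelled WT tongues. The libraries labelled KO lay within a narrow range below every library labelled WT, and labelled WT replicate 3 stood far above the other two of its group. On average it had 15.5 ± 2.85 CPM in labelled KO tongues and 112 ± 114 CPM in labelled WT tongues (SD, n = 3 each), with a log2 fold change of -2.86 ± 0.68 (edgeR adjusted p = 0.0410). Without labelled WT replicate 3 the log2 fold change was -1.61 ± 0.26 (edgeR adjusted p = 0.0346), and Ucp3 was then the single member called. It missed the threshold with no filter (edgeR adjusted p = 0.0914) and by limma-voom (adjusted p = 0.0509), and without each other library except labelled WT replicate 1.

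Pdk4 (identifier 27273, chromosome 6, 5483351 to 5496278), the kinase that shuts off pyruvate dehydrogenase and so favours fatty acids over glucose as fuel, stood at 103, 47.7 and 149 CPM in labelled KO tongues and at 181, 340 and 1364 CPM in labelled WT tongues. Again the groups did not overlap and labelled WT replicate 3 was the high library. The log2 fold change was -2.65 ± 0.76 and did not pass (edgeR adjusted p = 0.0553). Without labelled WT replicate 3 it was -1.38 ± 0.53 (edgeR adjusted p = 0.169).

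Ucp3 and Pdk4 are shown by the 300 bases around their starts, from 250 before to 50 after, because they had the largest differences and both stood far highest in labelled WT replicate 3. Within the labelled KO group their orders differed, Ucp3 being lowest and Pdk4 highest in replicate 3. The sequences are those of RefSeq for GRCm38.p6, at chr7:100472741-100473040 on the plus strand for Ucp3 and chr6:5496229-5496528 on the minus strand for Pdk4. Capitals mark AGGTCA, the core element of binding sites of nuclear receptors such as the PPARs, searched on both strands.
Ucp3: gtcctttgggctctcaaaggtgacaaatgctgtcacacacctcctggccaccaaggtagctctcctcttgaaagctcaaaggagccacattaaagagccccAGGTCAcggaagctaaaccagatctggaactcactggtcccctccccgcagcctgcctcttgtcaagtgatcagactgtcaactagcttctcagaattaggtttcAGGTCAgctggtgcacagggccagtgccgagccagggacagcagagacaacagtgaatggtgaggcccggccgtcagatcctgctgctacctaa
Pdk4: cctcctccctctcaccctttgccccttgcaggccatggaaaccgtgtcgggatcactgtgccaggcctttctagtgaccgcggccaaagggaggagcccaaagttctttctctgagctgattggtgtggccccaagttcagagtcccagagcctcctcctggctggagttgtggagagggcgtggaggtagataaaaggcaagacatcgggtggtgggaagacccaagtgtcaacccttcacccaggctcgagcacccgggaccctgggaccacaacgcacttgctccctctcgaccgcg
The Ucp3 window holds the element from bases -149 and -44, with the start as 0, and the Pdk4 window does not hold it. Of 27 of the 35 genes with an entry in the table of promoters, 8 held it, in 10 of 33 windows (30.3%), beside 16.3% of 32851 windows of all genes. This margin was not tested, and Pparg and Plin5 each held it in more than a single window. The 8 were Ucp3 and Cd36, which were called, and Pparg, Plin5, Acadvl, Acadm, Cpt1a and Ucp1, which were not. AGGTCANAGGTCA, a direct repeat of the element spaced by a single base, was in 0 of the 33 and in 0.0396% of all. A match describes letters and shows no binding.

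Hadhb (identifier 231086, chromosome 5, 30155253 to 30184593) encodes the beta subunit of the mitochondrial trifunctional protein, which carries out the last steps of beta-oxidation of long chains. It stood at 37.5, 39.1 and 58.8 CPM in labelled KO tongues and at 62.3, 98.3 and 110.1 CPM in labelled WT tongues. The groups came close, at labelled KO replicate 3 and labelled WT replicate 1, but did not overlap. On average it had 45.1 ± 11.9 CPM in labelled KO tongues and 90.2 ± 24.9 CPM in labelled WT tongues (SD, n = 3 each), a log2 fold change of -0.999 ± 0.25 (edgeR adjusted p = 0.0444). Hadha, which encodes the alpha subunit of the same complex, stood at 429, 440 and 658 CPM in labelled KO tongues and at 567, 813 and 1010.2 CPM in labelled WT tongues, with overlap (-0.65 ± 0.27, edgeR adjusted p = 0.122). Per kilobase of exon the mean level of Hadha was 58.3 CPM in labelled KO tongues and 91.3 CPM in labelled WT tongues, far above Hadhb at 6.84 CPM in labelled KO tongues and 13.7 CPM in labelled WT tongues. RefSeq also lists a pseudogene of Hadhb, for which no counts were found here. Whether reads of Hadhb were lost to it was not tested.

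Hadha and Hadhb start back to back, 272 bases apart on opposite strands, so that a single stretch lies before both. The window of Hadhb, chr5:30155003-30155302 on the plus strand in GRCm38.p6 from RefSeq, is printed for that reason, with the 228 bases that it shares with the window of Hadha in capitals. It holds no AGGTCA on either strand.
Hadhb: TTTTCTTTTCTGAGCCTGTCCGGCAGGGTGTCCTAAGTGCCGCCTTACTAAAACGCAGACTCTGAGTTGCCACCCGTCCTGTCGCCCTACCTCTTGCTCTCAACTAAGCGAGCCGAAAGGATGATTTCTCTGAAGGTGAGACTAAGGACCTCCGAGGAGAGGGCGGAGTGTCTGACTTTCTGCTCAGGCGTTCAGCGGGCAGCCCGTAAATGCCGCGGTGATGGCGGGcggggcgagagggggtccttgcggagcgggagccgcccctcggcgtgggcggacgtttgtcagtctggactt

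**Figure D2:**
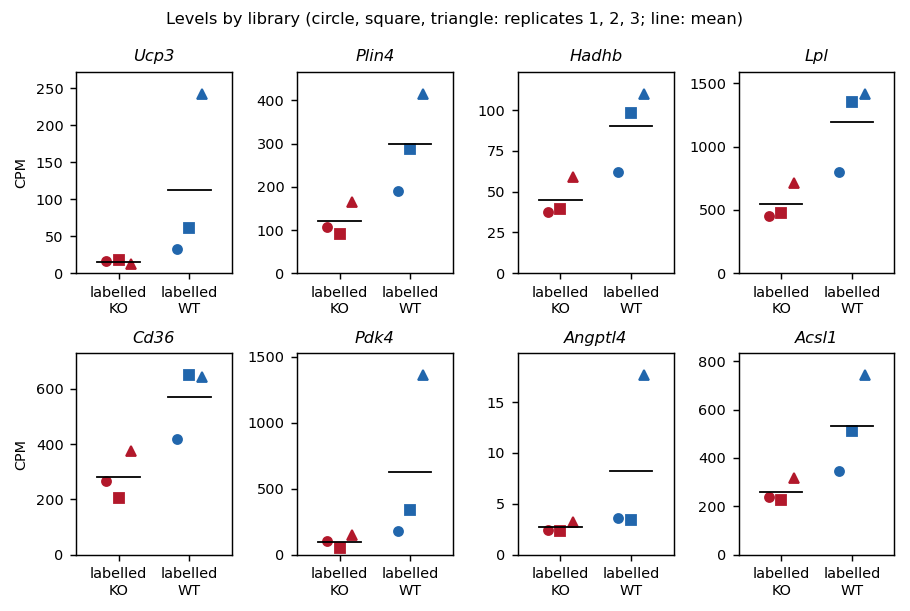
CPM by library for the 5 called genes and for Pdk4, Angptl4 and Acsl1, with labelled KO left of labelled WT, markers for replicates and a line at the mean. The groups do not overlap in any of the 8 panels, and labelled WT replicate 3 stands apart in Ucp3, Pdk4 and Angptl4.

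The carnitine palmitoyltransferases move fatty acids into mitochondria, the muscle form Cpt1b acting at the outer membrane and Cpt2 at the inner. Cpt2 stood at 90.8, 80.5 and 123 CPM in labelled KO tongues and at 125, 179 and 231 CPM in labelled WT tongues. Cpt1b stood at 3.70, 3.23 and 5.38 CPM in labelled KO tongues and at 5.53, 8.17 and 11.3 CPM in labelled WT tongues. In both genes every library labelled KO lay below every library labelled WT, though by little between labelled KO replicate 3 and labelled WT replicate 1. Neither passed: the log2 fold changes were -0.86 ± 0.25 (edgeR adjusted p = 0.0553) for Cpt2 and -1.02 ± 0.30 (edgeR adjusted p = 0.0598) for Cpt1b. An overlapping non-coding gene, Gm44502, spans all of Cpt1b, and with no strand setting given in the sources used here its count is uncertain.

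The acyl-CoA dehydrogenases, which start each round of beta-oxidation on very long, long and medium chains, were among the most abundant members. Acadvl stood at 437, 433 and 649 CPM in labelled KO tongues and at 589, 889 and 1065 CPM in labelled WT tongues. Acadl stood at 313, 334 and 482 CPM in labelled KO tongues and at 440.5, 698 and 815 CPM in labelled WT tongues. Acadm stood at 232, 261 and 355 CPM in labelled KO tongues and at 311, 498 and 587 CPM in labelled WT tongues. In these 3 genes labelled KO replicate 3 reached above labelled WT replicate 1, and the other libraries labelled KO lay below every library labelled WT. Their log2 fold changes, -0.74 ± 0.27, -0.79 ± 0.27 and -0.72 ± 0.27, did not pass (edgeR adjusted p = 0.0916, 0.0809 and 0.0948).

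The remaining muscle genes carry or store fatty acids or regulate transcription, and none of them passed. Fabp3, the fatty acid binding protein of heart and muscle, had a log2 fold change of -0.57 ± 0.45, with 211 CPM in labelled KO replicate 3 above 102 and 179 CPM in labelled WT replicates 1 and 2. Plin5, the droplet coat of oxidative tissues, was at 28.9, 15.7 and 60.7 CPM in labelled KO tongues and at 38.2, 65.6 and 114 CPM in labelled WT tongues (-1.04 ± 0.52, edgeR adjusted p = 0.177). Labelled KO replicate 3 was again the high library of its group in both. The receptor gene Ppara (-0.63 ± 0.35) and its coactivator Ppargc1a (-0.45 ± 0.31), a driver of mitochondrial biogenesis, also overlapped between groups. RefSeq lists a pseudogene of Fabp3, for which no counts were found here. Whether reads of Fabp3 were lost to it was not tested, so the count of Fabp3 is uncertain.

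Of the 9 genes of several tissues, Lpl and Cd36, which act in uptake from the blood, fell. Lpl (identifier 16956, chromosome 8, 68880555 to 68906932), the lipase that frees fatty acids from circulating triglyceride, stood at 451, 476 and 717 CPM in labelled KO tongues and at 799, 1355 and 1420.3 CPM in labelled WT tongues. Cd36 (identifier 12491, chromosome 5, 17781690 to 17888959), the fatty acid transporter of fat, muscle and capillary endothelium, stood at 266, 207 and 375 CPM in labelled KO tongues and at 419.96, 651 and 642 CPM in labelled WT tongues. Neither gene overlapped between groups, and in both the lowest library labelled WT was replicate 1. The log2 fold changes were -1.12 ± 0.29 for Lpl (edgeR adjusted p = 0.0472) and -1.01 ± 0.27 for Cd36 (edgeR adjusted p = 0.0485). Lpl averaged 548 ± 147 CPM in labelled KO tongues and 1191 ± 342 CPM in labelled WT tongues, and Cd36 averaged 283 ± 85.0 CPM in labelled KO tongues and 571 ± 131 CPM in labelled WT tongues (SD, n = 3 each).

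Angptl4, a secreted inhibitor of lipoprotein lipase, stood at 2.46, 2.35 and 3.25 CPM in labelled KO tongues and at 3.58, 3.42 and 17.7 CPM in labelled WT tongues. The groups did not overlap, but all but the last of these values lay close together (-1.59 ± 0.62, edgeR adjusted p = 0.104), and without labelled WT replicate 3 the log2 fold change was -0.38 ± 0.24. Acsl1, which activates long fatty acids as CoA esters, stood at 237, 227 and 319 CPM in labelled KO tongues and at 347, 511 and 743 CPM in labelled WT tongues (-1.03 ± 0.29, edgeR adjusted p = 0.0524), also with no overlap. It missed the threshold narrowly.

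The lipases inside the cell differed less. Pnpla2, which takes the first fatty acid off stored triglyceride, had a log2 fold change of -0.49 ± 0.28 (95% interval -1.13 to 0.15), and Lipe, the hormone-sensitive lipase, -0.33 ± 0.21 (-0.82 to 0.16). Lipe is spanned by the non-coding gene 4732471J01Rik and its count is uncertain. Both overlapped between groups.

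Cpt1a, the liver and general form of the outer carnitine palmitoyltransferase, stood at 77.4, 86.6 and 51.02 CPM in labelled KO tongues and at 75.7, 62.0 and 79.1 CPM in labelled WT tongues, with wide overlap. Its log2 fold change was -0.01 with a 95% interval of -0.48 to 0.45. Ucp2, the uncoupling protein of many cell types including immune cells, stood at 452, 428 and 472 CPM in labelled KO tongues and at 548, 407 and 498 CPM in labelled WT tongues (-0.10, interval -0.50 to 0.29). The values of Ucp1, the uncoupling protein of brown fat, were at most 1.35 CPM in any library, and neither group was uniformly higher.

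Ratios within a library set the related forms side by side, as a description. The ratio of Ucp3 to Ucp2, which lie 6904 bases apart on chromosome 7, was 0.0362, 0.0415 and 0.0260 in labelled KO tongues and 0.0603, 0.149 and 0.488 in labelled WT tongues. Here the groups did not overlap. The ratio of Cpt1b to Cpt1a was 0.0479, 0.0373 and 0.105 in labelled KO tongues and 0.0731, 0.132 and 0.143 in labelled WT tongues, with overlap through labelled KO replicate 3. As Gm44502 spans Cpt1b and makes its count uncertain, the size of this ratio does not show which form prevails in the tongue. The ratio of Fabp3 to Fabp4 overlapped too, at 0.990, 0.955 and 2.06 in labelled KO tongues and 1.02, 1.28 and 1.57 in labelled WT tongues.

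The defining fat-cell genes were close to the limit of detection, so the fat-cell name is borne weakly by these libraries. The sum of Adipoq (adiponectin), Plin1 (the main droplet coat of fat cells), Cidec (which enlarges droplets), Lep (leptin), Retn (resistin) and Cfd (adipsin) was 4.16, 3.44 and 4.06 CPM in labelled KO tongues and 3.55, 7.80 and 1.72 CPM in labelled WT tongues. Labelled WT replicate 2 was the highest and labelled WT replicate 3 the lowest, with all the libraries labelled KO between them. Adipoq stood at 0.654, 0.767 and 0.547 CPM in labelled KO tongues and at 0.430, 1.27 and 0.0391 CPM in labelled WT tongues, the last from 1 count.

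The other defining genes followed the same order of libraries within the labelled WT group, with the exception of Lep. Cfd stood at 1.87, 1.59 and 1.98 CPM in labelled KO tongues and at 1.92, 4.29 and 1.37 CPM in labelled WT tongues. Retn had 16, 15 and 30 counts in labelled KO tongues and 6, 20 and 0 counts in labelled WT tongues, and Lep had 21, 5 and 3 counts in labelled KO tongues and 5, 6 and 2 counts in labelled WT tongues. By edgeR 0 of the 5 tested passed, with 0 also at an unadjusted p under 0.05 and 0 by DESeq2 and limma-voom, and their 95% intervals were wide (Plin1 -1.95 to 1.11, Adipoq -1.62 to 1.77). Differences within these intervals were not excluded. The labelled WT libraries spread widely, with 15, 61 and 1 counts for Adipoq. Car3, a carbonic anhydrase abundant in fat and in slow muscle, stood at 5.03, 6.67 and 7.57 CPM in labelled KO tongues and at 4.16, 14.2 and 4.92 CPM in labelled WT tongues, again highest in labelled WT replicate 2.

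**Figure D3:**
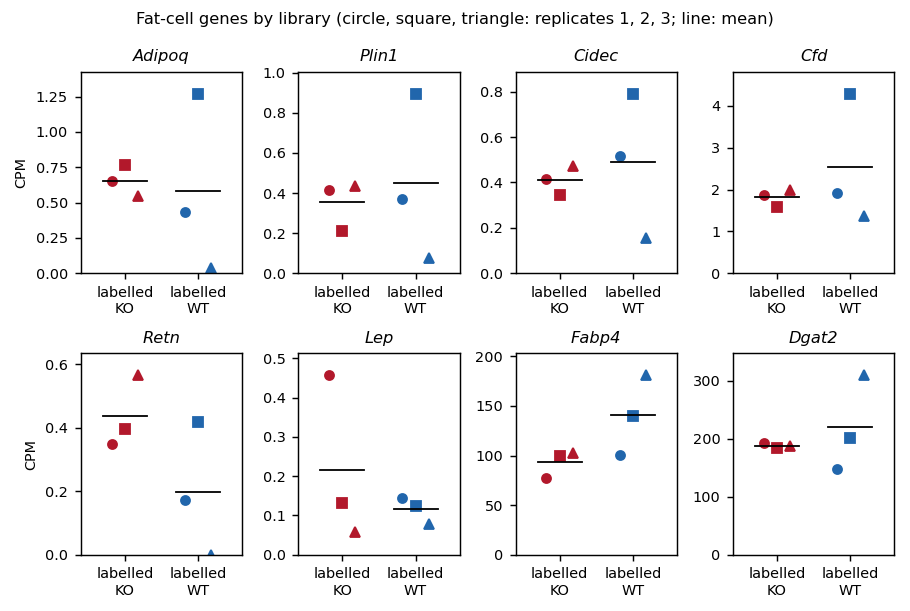
CPM by library for the 6 defining fat-cell genes and for Fabp4 and Dgat2, with labelled KO left of labelled WT, markers for replicates and a line at the mean. In Adipoq, Plin1, Cidec, Cfd and Retn labelled WT replicate 2 (square) is the highest library labelled WT and replicate 3 (triangle) the lowest, while Fabp4 and Dgat2 are highest in replicate 3.

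Other fat-cell genes were far more abundant than the defining ones. Per kilobase of exon, Dgat2, which makes triglyceride, averaged 60.9 CPM in labelled KO tongues and 71.2 CPM in labelled WT tongues, and Adipoq averaged 0.475 CPM in labelled KO tongues and 0.420 CPM in labelled WT tongues. Dgat2, Scd1 (a desaturase of saturated fatty acids), Cidea (a droplet protein of brown fat) and Pparg (the receptor that drives fat-cell formation) overlapped between groups, with log2 fold changes of -0.23, 0.31, -0.03 and 0.18. None of these 4 passed, and their 95% intervals together ran from -0.80 to 0.80.

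Plin4 (identifier 57435, chromosome 17, 56100587 to 56109948), a droplet coat protein of fat cells and of muscle, was the fat-cell gene that fell. It stood at 107, 90.8 and 164 CPM in labelled KO tongues and at 191, 288 and 416 CPM in labelled WT tongues. The order of libraries was that of the muscle genes, with labelled WT replicate 3 at the top, and not that of Adipoq or Plin1. On average it had 121 ± 38.6 CPM in labelled KO tongues and 299 ± 113 CPM in labelled WT tongues (SD, n = 3 each), a log2 fold change of -1.31 ± 0.32 (edgeR adjusted p = 0.0425). Its neighbour Plin5, 1648 bases away, was high and low in the same libraries but did not pass.

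Fabp4, the fatty acid binding protein of fat cells and of capillary endothelium, stood at 77.1, 99.6 and 102 CPM in labelled KO tongues and at 101, 139.9 and 181 CPM in labelled WT tongues. The groups overlapped by a narrow margin (-0.60 ± 0.22, edgeR adjusted p = 0.0926). Summed, 12 endothelial markers stood at 558, 477 and 517 CPM in labelled KO tongues and 655, 826 and 849 CPM in labelled WT tongues. The groups did not overlap, and 3 of the 12 fell (Cdh5, Kdr and Tie1), beside 7.43% of all genes tested. The part of the endothelium in the values of Fabp4, Lpl and Cd36 was not tested.

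**Figure D4:**
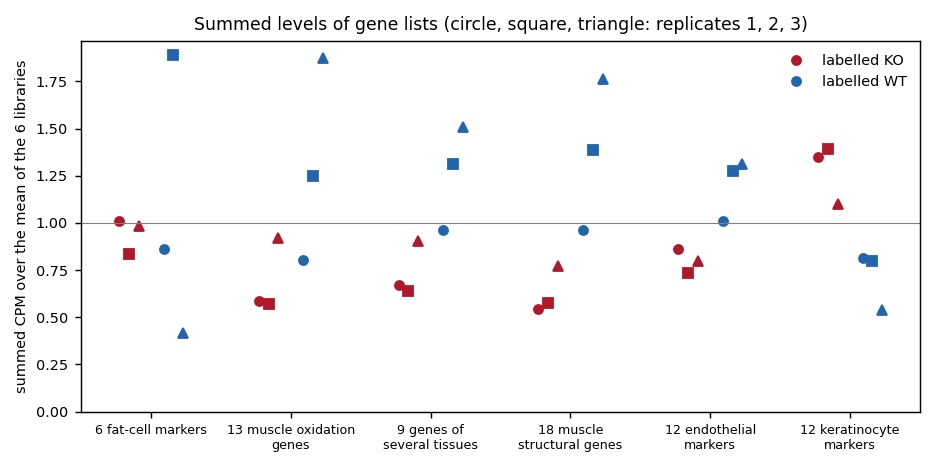
Summed CPM of gene lists in each library, divided by the mean of the 6 libraries, with labelled KO left of labelled WT. Every library labelled KO lies below those labelled WT for the muscle structural genes and endothelial markers and above them for the 12 keratinocyte markers, and the 6 fat-cell markers overlap, with labelled WT replicates 2 and 3 at the ends.

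Labelled WT replicate 3 stood apart in Ucp3, Pdk4 and Angptl4, a pattern picked out after the values were seen. Its level over the mean of labelled WT replicates 1 and 2 was 5.17-fold for Ucp3, 5.23-fold for Pdk4 and 5.05-fold for Angptl4, and next among the members came Plin5 at 2.19-fold. The muscle structural sum was 1.499-fold in the same terms. Of 14229 genes with a mean of at least 1 CPM, 29 of them members, 9 (0.0633%) were at least 5-fold higher in that library. The 5-fold cut lies just below the values of these 3 genes, which were picked for this pattern. Their place among the 9 follows from that choice, so the share is no measure of the members. The other 6 were Alox15, a lipoxygenase, Apln, the peptide hormone apelin, Ccl27a, a chemokine, Dbp, a transcription factor of circadian output, Sbk3, a kinase, and Selenbp2.

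Levels were also set against the 18 muscle structural genes, as CPM per 1000 CPM of their sum. That list holds fast-fibre genes such as Myh4, Actn3 and Pvalb beside general ones such as Ttn, and does not stand for all muscle. A list of 8 slow-muscle genes summed to 468, 421 and 396 CPM in labelled KO tongues. In labelled WT tongues it summed to 402, 463 and 390 CPM, with overlap and a median log2 fold change of 0.03 over the 7 tested. The summed muscle oxidation genes came to 41.1, 38.1 and 45.6 in labelled KO tongues and 31.9, 34.5 and 40.6 in labelled WT tongues. The summed fat-cell genes came to 11.1, 10.1 and 8.41 in labelled KO tongues and 6.60, 6.32 and 6.66 in labelled WT tongues. On this scale the summed oxidation genes overlapped between groups and the summed fat-cell genes were higher in every library labelled KO. Before this scaling the fat-cell sum was 489 to 994 CPM, of which the 6 defining markers made 1.72 to 7.80 CPM. It therefore rests on abundant genes such as Dgat2, Plin4, Fabp4 and Scd1, and says little of fat cells. Because the denominator is lower in labelled KO, most genes rank higher there: the libraries labelled KO were all above those labelled WT for 77.2% of all genes tested and all below for 0.365%.

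Per muscle CPM, 15 of the 34 members tested lay wholly higher in labelled KO and 1 wholly lower, with a median fold of 1.46 over the members and 2.12 over all genes tested. The gene wholly lower was Ucp3, at 0.355, 0.365 and 0.188 per 1000 in labelled KO tongues and 0.405, 0.518 and 1.63 in labelled WT tongues. Pdk4, at 2.23, 0.982 and 2.29 in labelled KO tongues and 2.22, 2.89 and 9.13 in labelled WT tongues, overlapped. Hadhb, Plin4, Lpl and Cd36 overlapped as well, with folds of the means of 1.08, 0.884, 0.991 and 1.05. With the mean of the muscle list as a covariate edgeR called 0 of the 34 and 0 of all 15903 genes (0 and 1 of the 34 lower and higher at an unadjusted p under 0.05), and no other tool was run with it.

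**Figure D5:**
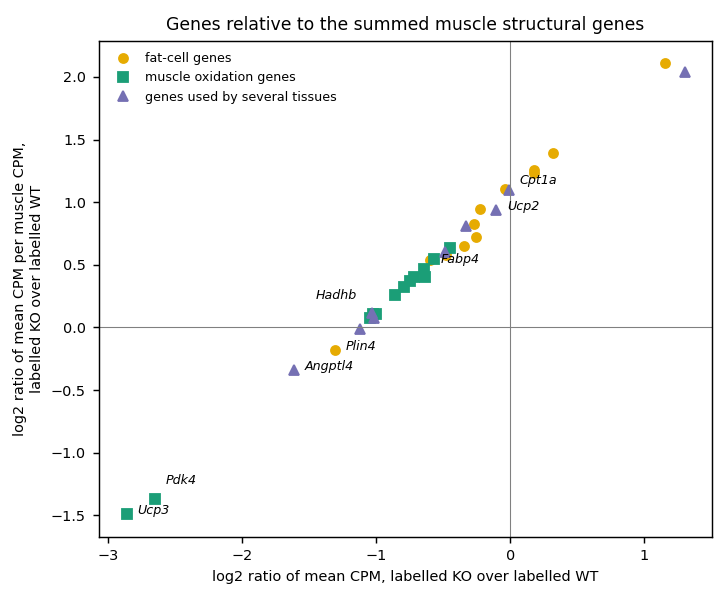
Log2 ratio of mean CPM (x axis) and of mean CPM per muscle CPM (y axis), labelled KO over labelled WT, for the 34 genes tested. Ucp3 and Pdk4 lie far below the others on both axes, and Hadhb lies near 0 on the y axis.

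The other genes of the same pathways, from lists kept apart from the 35, gave a like picture for muscle and a mixed one for fat. Over all genes tested 7.43% fell and 4.81% rose, and the list counts here and below stand beside these shares, with no test of the margin. Of 26 further genes of fatty acid oxidation, 3 fell and 0 rose, with a median log2 fold change of -0.63. The libraries labelled KO were all below those labelled WT for 7 of the 26 and all above for 1, where 22.1% and 22% of all genes did so. Those that fell included Acot13, a mitochondrial thioesterase (-0.72 ± 0.18), and Esrrg, an orphan nuclear receptor of oxidative tissues (-0.93 ± 0.21). Of 20 genes of the respiratory chain and citric acid cycle, 5 fell and 0 rose, with a median of -0.76.

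Among 12 tested genes of lipolysis, lipoprotein handling and droplet formation, 5 fell and 1 rose. Those that fell were Vldlr, a lipoprotein receptor (-1.06 ± 0.26), the droplet formation genes Fitm1 (-1.04 ± 0.24) and Fitm2 (-1.03 ± 0.25), the droplet coat Plin3 (-0.91 ± 0.23) and Lmf1, a factor needed for lipoprotein lipase to mature (-0.66 ± 0.16). The gene that rose was Lipg, endothelial lipase, at 11.2, 9.44 and 7.38 CPM in labelled KO tongues and 4.41, 2.77 and 2.27 CPM in labelled WT tongues (1.56 ± 0.28, edgeR adjusted p = 0.0325). It and Lpl, lipases of the same family, thus differed in opposite directions.

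Of 18 tested further genes of fat cells, 4 fell and 1 rose, with a median of 0.12. The libraries labelled KO were all below those labelled WT for 7 of the 18 and all above for 4, beside 22.1% and 22% of all genes tested. Fasn, the fatty acid synthase, rose, at 334, 233 and 223 CPM in labelled KO tongues and 168, 129 and 81.6 CPM in labelled WT tongues (1.06 ± 0.28, edgeR adjusted p = 0.0472). Acly, which supplies its acetyl-CoA, was also wholly higher in labelled KO but did not pass (0.84 ± 0.24, edgeR adjusted p = 0.0553). The same held for Cebpa (0.77 ± 0.26, edgeR adjusted p = 0.0748) and Dgat1 (0.42 ± 0.13, edgeR adjusted p = 0.0645). Those that fell were the glycerol channel Aqp7 (-1.40 ± 0.26), the phosphatidate phosphatase Lpin1 (-1.22 ± 0.31), the insulin-responsive glucose transporter Slc2a4 (-1.05 ± 0.24) and the glycerol phosphate dehydrogenase Gpd1 (-1.01 ± 0.21), each of which muscle uses too. Beside these, 12 keratinocyte markers summed to 49107, 50663 and 40062 CPM in labelled KO tongues and 29682, 29079 and 19691 CPM in labelled WT tongues, with no overlap, and their part in the values of Fasn and Acly was not tested. Of 7 tested brown-fat genes, 3 fell (Cox7a1, Ppargc1b and Ebf2) and 0 rose, and muscle also uses Cox7a1 and Ppargc1b. The libraries labelled KO were all below those labelled WT for 3 of the 7 and all above for 1, beside 22.1% and 22% of all genes tested. The gene wholly above was Dio2, which did not pass (0.87 ± 0.32, edgeR adjusted p = 0.0944). Zic1, a brown-fat marker, was at 0.117 CPM or less in every library.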

How the data were processed

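RNA-seq gene counts of 6 tongues were used, grouped and numbered by the sample titles. The deposited table gives raw read counts per gene, whole numbers with unequal totals, so the authors had not scaled them. The submitters' processing notes list HTSeq, DESeq2, hg19 and mm10 without a role for any. No aligner, annotation or strand setting is named in the sources used here. The authors' own comparison and their tables of fewer libraries were not used.

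The test was edgeR (4.0.16, R 4.3.3), after filterByExpr (a minimum of 10 counts, scaled by library, and 15 in total) and TMM scaling. A robust quasi-likelihood model with the group alone was fitted to all 6 libraries, with Benjamini-Hochberg adjustment over all 15903 genes at 0.05. The script was tested on simulated data. Standard errors, the absolute log2 fold change over the square root of F, are approximate at low counts. CPM used the scaled library sizes. Exon lengths came from GENCODE, and coordinates and promoters from RefSeq for GRCm38.p6.

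The labels do not say how the replicates of a group arose, and p-values measure only the spread between these libraries. The members, lists and tests were chosen with earlier results of these data known. All members were accounted for, with levels by library where a gene passed, did not overlap or had a library standing apart, and other genes were named if they were in a list and passed or were abundant. A gene of the oxidation list is counted but not reported here by name. The 6 genes named beside Ucp3, Pdk4 and Angptl4, and Acly, Cebpa, Dgat1, Dio2, Zic1, Xist and Ddx3y, were named outside this rule after their values were seen. Alternatives were DESeq2 size factors, no filter, DESeq2 1.42.0, limma-voom (limma 3.58.1), leaving out each library, a replicate block, the muscle mean as a covariate and, added after seeing the data, male libraries alone.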

Additional observations from a re-analysis of the deposited data

How the results depend on the processing

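With DESeq2 size factors or no filter, the count of members called lower was 5 or 6 and no list count moved by over 1.5 times. With no filter the genes changed, as Ucp3 was no longer called and Acsl1 and Cpt2 were. DESeq2 called 14 members lower (2 fat-cell, 8 muscle oxidation), where 12.3% of all genes were lower, and limma-voom 5, of them 1 muscle oxidation gene, where 7.99% were. Leaving out a library gave 0 to 14 members lower, 0 to 2 fat-cell and 0 to 9 muscle oxidation genes, and a fat-cell median of -0.39 to 0.23. The muscle oxidation median was -1.14 to -0.56 in those fits. With the muscle mean as a covariate, or in male libraries alone, where the lone library labelled KO is assumed to vary like the others, edgeR called 0 members and 0 of all genes (for the members 0 and 7 lower at an unadjusted p under 0.05, and no other tool was run). The muscle oxidation median was 0.26 with the muscle mean and -1.09 in male libraries alone, and the fat-cell median was 0.17 with the muscle mean. As the muscle mean did not overlap between groups, the covariate fit can hardly separate muscle content from the group. In no setting was a member called higher.

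With the replicate number as a block (replicate block), 13 members were lower (2 fat-cell, 8 muscle oxidation), as were 13.3% of all genes. Ucp3 was not among them (-2.32, edgeR adjusted p = 0.189). Deviations of same-numbered libraries from their group means correlated at 0.12, -0.16 and 0.19. Labelled KO replicate 1 correlated best with labelled WT replicate 2, and labelled KO replicate 3 with labelled WT replicate 3. With 3 libraries in each group these values cannot decide whether libraries of the same number were paired.

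The direction of single genes turned as follows (log2 fold changes). The muscle mean did not overlap between groups, so turns in that fit cannot be read as an effect of muscle content. With the muscle mean as a covariate it turned for Fabp3 (1.29), Car3 (1.13), Plin5 (0.72), Cidea (0.58), Ppara (0.51), Ppargc1a (0.49), Pnpla2 (0.47), Dgat2 (0.42), Acadm (0.34), Hadha (0.32), Acadl (0.26), Acadvl (0.24), Fabp4 (0.20), Lipe (0.15), Plin1 (0.15), Cfd (0.082), Cpt2 (0.039), Hadhb (0.039), Cpt1b (0.035), Angptl4 (0.0091), Pparg (-0.027) and Scd1 (-0.38). It turned for Cidea by limma-voom (0.058) and with the replicate block (0.0060), and for Cpt1a (0.068) and Ucp1 (-0.97) in male libraries alone. Leaving out each library in turn gave a range that crossed 0 for Adipoq (-0.41 to 1.37), Plin1 (-0.85 to 0.58), Cidec (-0.68 to 0.24), Cfd (-0.78 to 0.135), Car3 (-0.57 to 0.50), Dgat2 (-0.43 to 0.10), Cidea (-0.19 to 0.30), Cpt1a (-0.17 to 0.18) and Ucp2 (-0.22 to 0.0086). The highest value of Adipoq, Plin1, Cidec, Cfd and Car3 was the one without labelled WT replicate 2. Of the genes in this paragraph Hadhb alone was called in the fit reported above, none was called in the fit that turned it, and the cause was not tested.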
